A study of Mus musculus with 8 samples.

Results

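The miRNAs of white blood cells were followed here in the livers of diabetic db/db mice and control db/+ mice. The members are 9 mouse miRNAs known from blood-forming cells, of 567 mouse miRNAs with probes on the array, and were taken by name: mmu-miR-142-3p, mmu-miR-142-5p, mmu-miR-223, mmu-miR-155, mmu-miR-146a, mmu-miR-146b, mmu-miR-150, mmu-miR-342-3p and mmu-miR-342-5p, written below without the mouse prefix mmu. The series compared livers of 4 db/+ animals with livers of 4 db/db animals, with 1 Agilent 1-colour array per animal. Both groups are described by the labels as mice of the C57BL/KsJ db line: db/db animals lack a working leptin receptor and become obese and diabetic, while db/+ animals carry 1 normal copy. No treatment is named, and age and sex are not given for the animals in the labels used here.

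miRNAs are short RNAs that pair with messenger RNAs, mainly through the seed near their 5′ end, and lower the translation or stability of those messengers. The liver holds resident macrophages, the Kupffer cells, as well as passing neutrophils, monocytes and lymphocytes, so RNA of the whole organ carries miRNAs that hepatocytes make little of. miR-142 is made in nearly all blood-forming lineages, miR-223 is most abundant in neutrophils and other myeloid cells, and miR-150 and miR-342 are known from lymphocytes, though miR-342 is less restricted. miR-155, miR-146a and miR-146b are induced when immune cells are activated through NF-kB.

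Mature sequences from RefSeq (GRCm38.p6) matched 8 of the 9 members. The seed, bases 2 to 8 from the 5′ end, in capitals, sets which members can share targets. Likeness over the longer stretch that a probe matches sets which probes could cross-react.
miR-142-3p: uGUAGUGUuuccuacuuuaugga
miR-142-5p: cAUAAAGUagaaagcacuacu
miR-223: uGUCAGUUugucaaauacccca
miR-342-3p: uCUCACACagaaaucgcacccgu
miR-342-5p: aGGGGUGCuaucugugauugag
miR-155: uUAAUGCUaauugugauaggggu
miR-146a: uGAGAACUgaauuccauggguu
miR-146b: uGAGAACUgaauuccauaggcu

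miR-146a and miR-146b were the only members with a common seed among the 8 sequences compared. They were identical at 20 of 22 bases and differed by G18A and U21C, with the base of miR-146a first and positions counted from the 5′ end. By sequence alone their probes could share signal, but the miR-146b probes gave little signal on arrays where miR-146a was measured, as given below. miR-142-5p and miR-142-3p come from 1 hairpin of 64 bases, printed here with both arms in capitals because the arms are compared as products of 1 precursor. The 5p arm spans bases 4 to 24 and the 3p arm bases 40 to 62.
Mir142 hairpin: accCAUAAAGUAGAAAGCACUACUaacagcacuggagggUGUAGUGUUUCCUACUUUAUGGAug

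In RefSeq gene records, Mir342 lies within Evl, Mir155 within its host transcript Mir155hg, and Mir223 within F630028O10Rik, names taken without regard to strand. In the array files, whose build is mm9, the longer probe of each measured member matched chr11:87570405-87570427 for miR-142-3p, chrX:93438224-93438244 for miR-223, chr12:109896896-109896912 for miR-342-3p and chr11:43187937-43187955 for miR-146a.

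Levels are scaled signals: background-subtracted intensity averaged over the spots and probes of a miRNA and divided by a scale factor for the brightness of its array. Scaled signals below 4.59 were set to that floor (2.20 on the log2 scale). All arrays lay on 1 slide, with db/db in row 1 and db/+ in row 2, and the effects of row and strain cannot be told apart. The scale factors ran from 0.847 to 1.06 in db/db. In db/+ they were 5.63, 0.564, 1.58 and 0.21 for replicates 1 to 4, a 26.8-fold range, and between 91 and 255 mouse miRNAs were detected per db/+ array against 133 to 166 per db/db array. The liver's own miR-122, known from hepatocytes, was detected on all 8 arrays.

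Among the leukocyte miRNAs, the pan-leukocyte miR-142-3p and the myeloid miR-223 fell in db/db livers, by 2.15-fold and 1.67-fold. The lymphoid miR-342-3p and the activation-induced miR-146a did not pass the test. The other 5 members were too dim to be tested with all 8 arrays. Testing required a detection flag on all 4 arrays of either strain. Of the 127 miRNAs tested, 15% were called, 5.51% lower and 9.45% higher in db/db, at a limma adjusted p under 0.05. Of the 4 tested members, 2 were called lower and 0 higher; at an unadjusted p under 0.05 limma likewise had 2 lower and 0 higher, as did SAM, the permutation test named in the series text. The median log2 fold change of these 4 members was -0.64, beside 0.15 over all 127 miRNAs. All 4 had a log2 fold change below 0, as did 33.9% of all tested miRNAs, although that of miR-146a changed sign in some of the alternatives tried. In RNA of whole liver, fewer cells of a type and less of a miRNA per cell cannot be told apart.

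**Figure D1:**
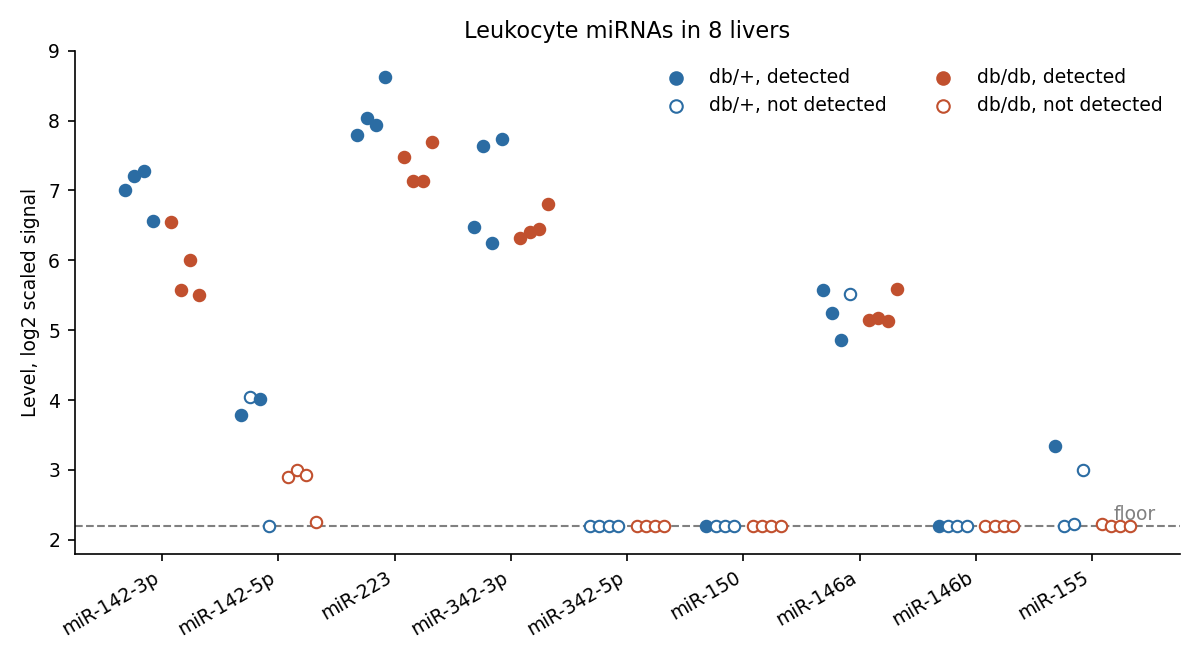
Level of each leukocyte miRNA (log2 scaled signal, vertical axis) in the 4 db/+ livers (blue) and the 4 db/db livers (orange), with points from left to right being replicates 1 to 4, open points not flagged as detected and the dashed line the floor at 2.20. miR-142-3p and miR-223 lay lower in all 4 db/db livers than in any db/+ liver, while miR-342-5p, miR-150 and miR-146b lay at the floor in all 8.

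miR-142-3p had scaled signals of 128, 147, 156 and 94.2 in db/+ replicates 1 to 4. In db/db replicates 1 to 4 they were 93.9, 47.7, 64.1 and 45.3. The strains did not overlap, but only just: db/+ replicate 4 and db/db replicate 1 were almost equal, and on db/+ replicate 4, the dimmest array, miR-142-3p was detected but not well above background. Values of the strains did not overlap for 22.8% of all tested miRNAs, and for 7.09% with db/db lower. On the log2 scale the mean was 7.01 ± 0.33 in db/+ and 5.91 ± 0.48 in db/db (SD, n = 4 each). The log2 fold change was -1.10 (SE 0.26, limma adjusted p = 0.0164).

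The call of miR-142-3p depended on single animals. Without db/+ replicate 2, db/db replicate 2 or db/db replicate 4 the limma adjusted p was 0.0578, 0.0557 and 0.0541, and it stayed under the threshold without any 1 of the other 5 arrays. Its log2 fold change was between -1.32 and -0.97 over these 8 fits. With normexp background correction it was -0.77 (limma adjusted p = 0.152), and with the raw median intensity, from which no background is subtracted, -0.64 (limma adjusted p = 0.453). Without the filter on dim miRNAs the limma adjusted p was 0.293 over all 567 mouse miRNAs, many of them constant at the floor, and 0.0615 over the 266 that were not. From the authors' deposited scores, read as logarithms of an estimated base 20, the log2 fold change was -1.08 (limma adjusted p = 0.126).

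miR-142-5p, the other arm of the same hairpin, had scaled signals of 13.9, 16.5, 16.2 and 1.41 in db/+ and 7.48, 7.98, 7.59 and 4.76 in db/db. It was flagged as detected only on db/+ replicates 1 and 3, the brightest arrays. On the bright db/+ replicate 1 all 20 of its spots stood well above background. All db/db values lay below those of db/+ replicates 1 to 3 and above that of db/+ replicate 4, which was at the floor. With all 8 arrays it did not meet the filter for testing, and no fold is given for them, since no db/db array measured it above background. Without the dim db/+ replicates 2 and 4, an alternative added after the data were seen, it met the filter only through db/+ replicates 1 and 3. These are the arrays that detected it, so this choice of arrays favoured a call. There miR-142-5p was called lower in db/db (limma log2 difference -1.14, adjusted p = 0.0271), although its db/db levels were still not well above background. That call is thus no support for a fall of miR-142-5p. Without the filter its limma adjusted p was 0.43, over all 567 mouse miRNAs.

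miR-223, the myeloid member, had scaled signals of 222, 263, 245 and 397 in db/+ replicates 1 to 4. In db/db replicates 1 to 4 they were 178, 140, 141 and 206. The strains did not overlap, and the highest value belonged to db/+ replicate 4. The log2 mean was 8.10 ± 0.37 in db/+ and 7.36 ± 0.27 in db/db (SD, n = 4 each). The log2 fold change was -0.74 (SE 0.22, limma adjusted p = 0.0434), close to the threshold.

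The call of miR-223 was lost more often than that of miR-142-3p. Leaving out db/+ replicate 2, 3 or 4 gave limma adjusted p = 0.0885, 0.0556 and 0.0729, and leaving out db/db replicate 1, 2 or 3 gave 0.0774, 0.137 and 0.131. Only without db/+ replicate 1 or db/db replicate 4 did it stay under the threshold, at 0.0382 and 0.0498. Its log2 fold change was between -0.85 and -0.56 over these 8 fits. With cyclic loess normalization over all mouse miRNAs it was -0.72 (limma adjusted p = 0.0952), and with normexp -0.52 (limma adjusted p = 0.271). With the raw median intensity it was -0.43 (limma adjusted p = 0.543). Without the filter the limma adjusted p was 0.41 over all 567 mouse miRNAs and 0.122 over 266, with the higher floor it was 0.0505, and from the authors' deposited scores it was 0.0559.

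**Figure D2:**
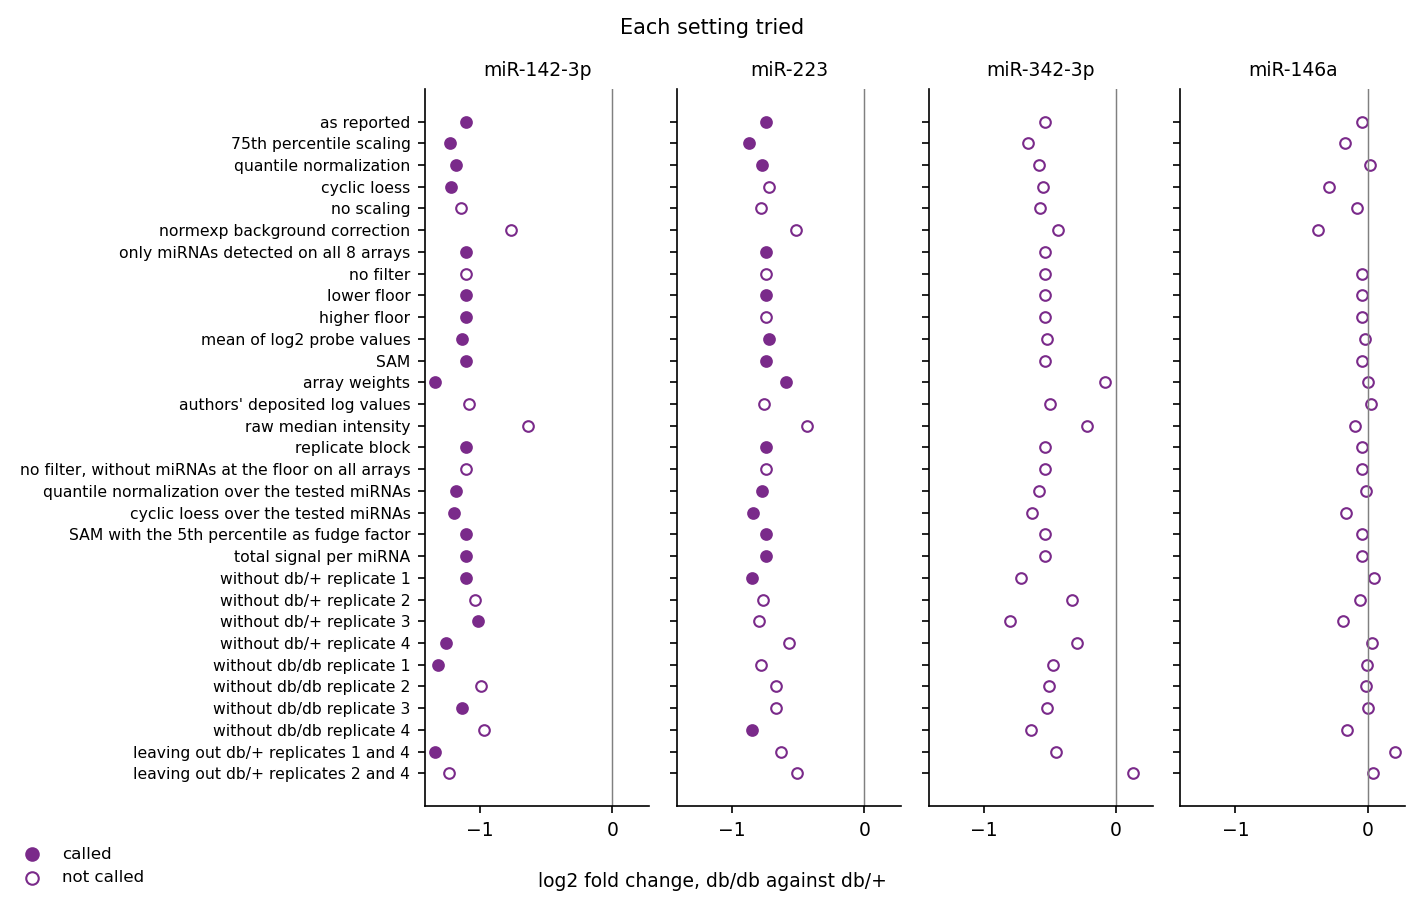
Log2 fold change, db/db against db/+ (horizontal axis), of the 4 tested leukocyte miRNAs under each processing or test tried (rows), with filled points where the miRNA was called. miR-142-3p and miR-223 lay below 0 in all 30 alternatives shown, in many of which their sign could not turn, while miR-342-3p and miR-146a were called in none.

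Both miRNAs were below 0 in all 30 alternatives tried, 7 of which were added after the data were seen, with log2 fold changes from -1.34 to -0.64 for miR-142-3p and from -0.87 to -0.43 for miR-223. Over the other 23 alternatives, miR-142-3p was called in 15 and miR-223 in 10. Both were called together in 9 of these 23, 1 of them in 7 and 0 in 7. In many of these alternatives the direction could not turn, so the plot of fold changes by setting holds many points that repeat the reported fit. SAM, the filters, the floors and the replicate block left both fold changes as reported. Weighting or leaving out arrays cannot turn them either, since the strains did not overlap. The direction could turn with another scaling, normalization, background treatment or probe average, or with the authors' scores, and it did not.

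miR-342-3p, the only lymphoid member bright enough to test, had scaled signals of 89.5, 199, 75.9 and 214 in db/+ replicates 1 to 4. In db/db they were 79.8, 84.3, 87.3 and 111. Here the strains overlapped: db/+ replicates 2 and 4 were high, db/+ replicate 1 lay among the db/db values and db/+ replicate 3 just below them. The log2 mean was 7.03 ± 0.77 in db/+ and 6.49 ± 0.21 in db/db (SD, n = 4 each). The log2 fold change was -0.54 (SE 0.34, 95% interval -1.29 to 0.21, limma adjusted p = 0.321), so the interval still held a fall as large as that of miR-223. The value rested on single control arrays: leaving out db/+ replicate 2, 3 or 4 in turn gave -0.33, -0.80 and -0.30, and array weights gave -0.09.

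The split of miR-342-3p among the controls followed the brightness of the arrays. It was higher on the dim db/+ replicates 2 and 4 than on the bright replicates 1 and 3 by 1.32 on the log2 scale, the second largest such difference of the 127 tested miRNAs. Both dim arrays lay above both bright ones for 61 of the 127 miRNAs (48%), miR-223 among them with a difference of 0.47. For miR-142-3p the difference was -0.26 and for miR-146a 0.16. Without db/+ replicates 2 and 4, an alternative chosen after the data were seen, the log2 fold change of miR-342-3p was 0.13 (limma adjusted p = 0.601), that of miR-223 was -0.51 (limma adjusted p = 0.111) and that of miR-142-3p -1.23 (limma adjusted p = 0.0537). In that fit the called member was miR-142-5p, with the limit given above. The part of array brightness in these values was not tested further.

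**Figure D3:**
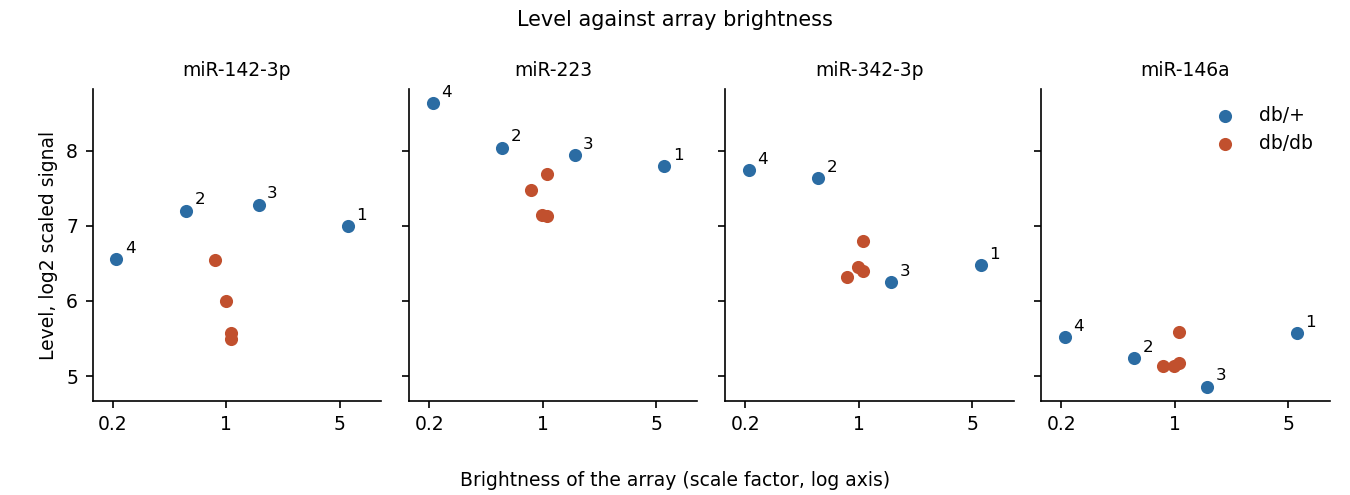
Level of the 4 tested leukocyte miRNAs (log2 scaled signal, vertical axis) against the scale factor of the array (horizontal log axis) for db/+ (blue, numbered by replicate) and db/db (orange). miR-342-3p was highest on the dim db/+ replicates 4 and 2, while miR-142-3p was lowest among db/+ on replicate 4.

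The other lymphoid members gave no usable level. miR-150, known from mature B and T cells, lay at or below the floor on all 8 arrays and was flagged as detected only on db/+ replicate 1, where its scaled signal was 3.2 and 2 of 17 spots were well above background. miR-342-5p, the other arm of the miR-342 hairpin, was detected on no array and had scaled signals of at most 1.02. No difference between strains was detectable for either at this signal. Of 4 further miRNAs known from lymphocytes, the miR-181 family, 0 met the filter for testing, and their summed scaled signal was 4.26 to 16.3 over the db/+ arrays, beside 7.44 to 15.8 over the db/db arrays. miR-342-3p, at 75.9 to 214 in db/+, was thus bright where these other lymphoid miRNAs were not. They do not bear it out as a measure of lymphocytes, and which cells it came from was not tested.

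Among the members induced on activation, miR-146a had scaled signals of 47.6, 37.9, 29.1 and 45.8 in db/+ replicates 1 to 4. In db/db they were 35.2, 35.9, 35.0 and 48.1. The strains overlapped, with db/db replicates 1 to 3 inside the range of db/+ and db/db replicate 4 just above it, and on db/+ replicate 4 miR-146a was not flagged as detected. The log2 mean was 5.30 ± 0.32 in db/+ and 5.25 ± 0.22 in db/db (SD, n = 4 each). The log2 fold change was -0.04 (SE 0.20, 95% interval -0.48 to 0.39, limma adjusted p = 0.909). Its sign turned with quantile normalization, array weights, the authors' scores and on leaving out some arrays, so no direction is given.

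miR-155 had a scaled signal of 10.1 on the bright db/+ replicate 1, the only array that detected it. On db/+ replicates 2 to 4 the signals were 3.6, 4.7 and 8, and in db/db 4.68, 4.45, 2.59 and 4.37. The db/+ and db/db values overlapped, and most lay near the floor. miR-146b lay at or below the floor on all 8 arrays, with scaled signals of at most 3.86, and was flagged as detected only on db/+ replicate 1. Its near-identical relative miR-146a was measured on the same arrays, so the miR-146b probes gave little signal even where miR-146a was present.

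The array carried more than 1 probe per member, and the levels above are means over these probes. Both probes of miR-223 were lower in db/db without overlap, by -0.74 and -0.69 on the log2 scale for the longer and the shorter match. The gaps were narrow. The lowest db/+ and highest db/db scaled signals were 354 and 339 for the longer probe, and 74.6 and 73 for the shorter. The longer miR-142-3p probe differed by -1.04, with the strains overlapping, and the shorter by -1.23, without overlap. On db/+ replicate 4 neither miR-142-3p probe was well above background, nor was the shorter one on db/db replicate 4. The shorter probes of miR-223 and miR-342-3p were also not well above background on db/+ replicate 4. The miR-342-3p probes differed by -0.53 and -0.50, and the longer miR-146a probe by -0.05. The shorter miR-146a probe was well above background only on db/+ replicate 1, so it gives no second value. Probes of a miRNA share the RNA sample and are not replicates. Those of miR-223 matched 21 and 20 bases of the same stretch, so they were bound to be alike. Among all tested miRNAs, 22.8% did not overlap between the strains, and 7.09% did not with db/db lower. Among the probe signals well above background, the spots of a probe varied by a median of 6.47% of their mean for miR-142-3p and 4.44% for miR-223.

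**Figure D4:**
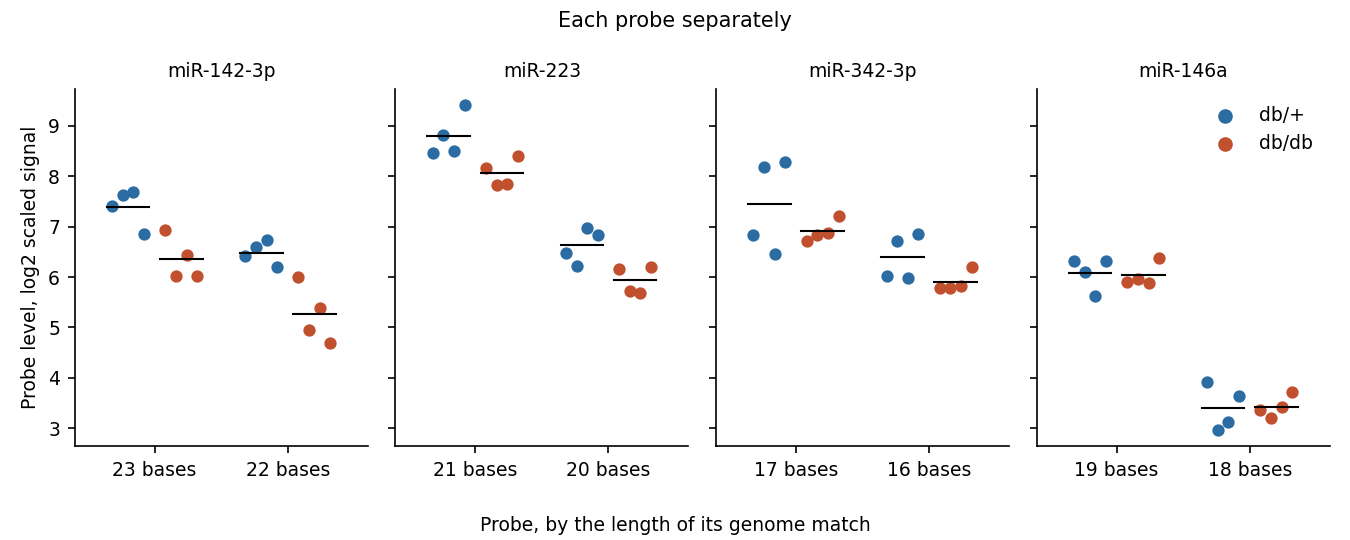
Level of each probe (log2 scaled signal, vertical axis) for the 4 tested leukocyte miRNAs, with probes named by the length of their genome match, points for db/+ (blue) and db/db (orange) replicates and a bar at the mean of 4 arrays. Both miR-223 probes, by narrow gaps, and the shorter miR-142-3p probe separated the strains, and no probe of miR-342-3p or miR-146a did.

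Whether myeloid and lymphoid members moved apart was asked within each array, where the scale factor cancels. Other effects of array brightness on the 2 miRNAs need not cancel. The level of miR-223 minus that of miR-342-3p was 1.31, 0.40, 1.69 and 0.89 in db/+ replicates 1 to 4. In db/db it was 1.16, 0.73, 0.69 and 0.89. Among the db/+ arrays it was lower on the dim replicates 2 and 4 than on the bright replicates 1 and 3. The strains overlapped, and the mean differed by -0.21, db/db minus db/+ (two-sided exact permutation p = 0.486, adjusted over 3 pairs 0.486). That difference was 0.00051 without db/+ replicate 3. Without db/+ replicates 2 and 4, an alternative added after the data were seen, it was -0.63 (two-sided exact permutation p = 0.0667, adjusted 0.133). There the db/+ values, 1.31 and 1.69, lay above all db/db values. With 2 against 4 arrays and 15 assignments the permutation test can give no smaller p, so it could not pass. miR-142-3p minus miR-223 differed by -0.36 (two-sided exact permutation p = 0.4, adjusted 0.486) and miR-142-3p minus miR-342-3p by -0.57 (two-sided exact permutation p = 0.343, adjusted 0.486). On leaving out 1 array these differences ran from -0.69 to -0.12 and from -0.96 to -0.21, and without db/+ replicates 2 and 4 they were -0.72 and -1.36. With 4 against 4 arrays the smallest p this test can give is 0.0286. After adjustment over 3 pairs, 1 pair alone at that p would not pass, so a failed test says little here. No different response of myeloid and lymphoid members was detected, and the test does not decide whether there was one. The lymphoid side rested on miR-342-3p alone, a less restricted miRNA, since miR-150 lay at the floor.

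**Figure D5:**
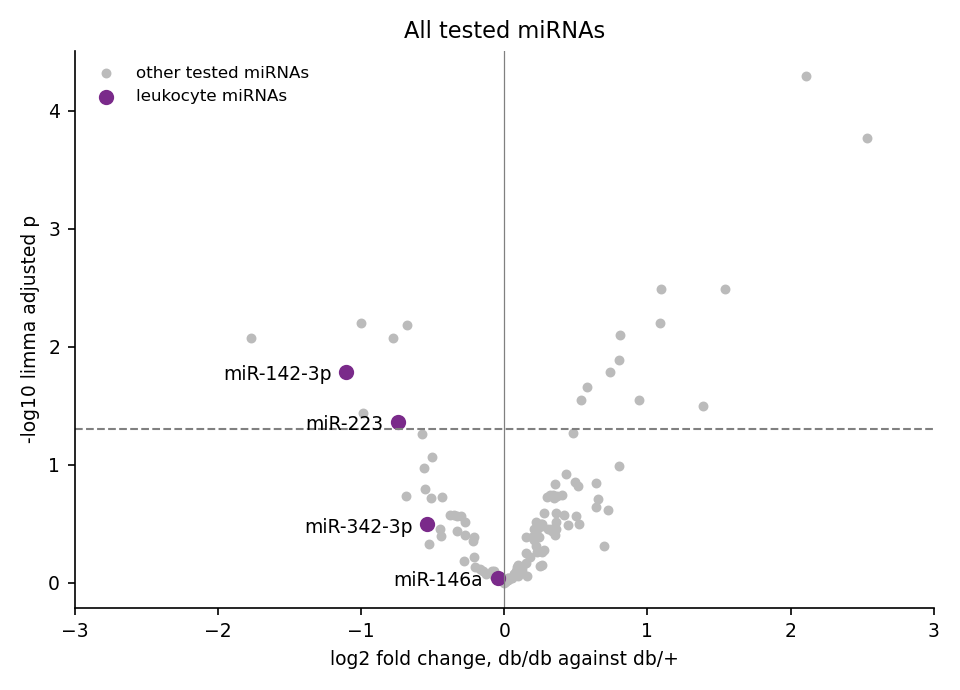
Log2 fold change, db/db against db/+ (horizontal axis), and -log10 of the limma adjusted p (vertical axis) of the 127 tested miRNAs, with the 4 tested leukocyte miRNAs in purple and the dashed line at an adjusted p of 0.05. miR-142-3p and miR-223 are among the 7 miRNAs called lower, and miR-223 lies just past the line.

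miRNAs of the liver's other cells, in lists chosen with earlier results of these data known, are given beside the leukocyte miRNAs. Of all 127 tested miRNAs 15% were called, so a count of 0 in lists this small says little about them. Of the 5 tested miRNAs known from hepatocytes, 0 were called by limma or SAM and 0 had an unadjusted p under 0.05; the one of smallest p was miR-194, at 0.22 on the log2 scale (limma adjusted p = 0.304). The same counts held for the 2 endothelial miRNAs, with miR-126-5p at 0.28 (limma adjusted p = 0.531), and for the 1 tested erythroid miRNA, miR-451, at 0.45 (limma adjusted p = 0.322), which marks the red cells in the tissue. Of the 3 tested miRNAs known from stellate or smooth muscle cells, 0 were called by limma or SAM, and 1, miR-214, had an unadjusted p under 0.05 (log2 fold change 0.64, limma adjusted p = 0.143). The summed scaled signal of the erythroid list, a sign of blood left in the organ, was 819 to 2000 over the db/+ arrays, beside 1250 to 2240 over the db/db arrays. These ranges overlapped, and their part in the fall of miR-142-3p and miR-223 was not tested.

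Of 6 further miRNAs listed for their link to inflammatory signals, 2 were tested and they went opposite ways. The list fixes no common direction for its members, so these 2 values do not say whether such signals differed. miR-21, which macrophages and hepatocytes both make, fell from 13.73 ± 0.25 to 12.95 ± 0.09 (SD, n = 4 each), a log2 fold change of -0.78 (limma adjusted p = 0.00846). miR-125b-5p rose by 0.54 on the log2 scale (limma adjusted p = 0.0281), though SAM did not call it.

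Over the 8 arrays the tested members did not all follow each other. Pearson's r of the log2 levels was 0.74 between miR-223 and miR-342-3p, 0.55 between miR-142-3p and miR-223 and 0.19 between miR-142-3p and miR-342-3p, as descriptions over 8 arrays that share the scaling and the strain difference. The miRNAs whose levels were most like those of miR-142-3p were miR-29b (r = 0.92), miR-362-3p (0.91), miR-101a (0.89), miR-29c (0.82) and miR-21 (0.82). Within the 4 db/+ arrays the same r was 0.97 for miR-29b and 0.91 for miR-101a, but 0.48 for miR-362-3p, 0.44 for miR-29c and -0.01 for miR-21, so for these last the likeness over 8 arrays was not seen among the controls to that degree. Those most like miR-223 were miR-338-3p (r = 0.94), miR-27a (0.90), miR-125a-5p (0.89), let-7e (0.87) and miR-705 (0.85), with r within db/+ of 0.94, 0.97, 0.71, 0.50 and 0.52. The neighbours of these miRNAs did not overlap, and of the 10 only miR-21, miR-125a-5p, let-7e and miR-705 were called between the strains.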

How the data were processed

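Each array received 100 ng of Cy3-labelled total RNA from 1 liver, per the labels' protocols. The authors' scanner files give processed spot intensity, background-subtracted and not scaled between arrays, and the file headers name Feature Extraction 9.5.3.1 (9.3.5 in the series text). Detection and outlier flags, of another kind than intensity, are 0 or 1, per the file headers. The deposited value table holds the raw median spot intensity and equalled the scanner files within 0.01 in all rows of the members. The authors also deposited a log score for 139 miRNAs, 4 of them members, whose base is not stated; it was read as log base 20, estimated from the scanner files, and converted to log2.

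Control and outlier spots were left out. Spots, then probes, were averaged on the linear scale and scaled by each array's median of the 89 miRNAs that every array detected. A floor of 4.59 was set, taken as the middle of the arrays' lowest detected scaled signals, and log2 was taken. The floor can understate the change of dim miRNAs. A probe counted as well above background where most of its spots were flagged so.

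The strains were compared by limma 3.58.1, under R 4.3.3 (two-sided moderated test on strain alone, Benjamini-Hochberg over 127 miRNAs) and, within arrays, with exact permutation tests over all 70 assignments; the procedure was tested on simulated data. Plots were drawn with matplotlib 3.10.9. The pair of miR-223 and miR-150 was not tested, since miR-150 was at the floor. Replicates are separate animals, per the series text. Replicate numbers 3 and 4 occur in the titles of both strains. The correlation of same-numbered deviations was 0.04 and 0.31, so pairing was not established. Arrays of the same number, as used here, also shared a slide column. For numbers 1 and 2 the correlation was -0.13 and -0.37, and the replicate block did not separate these 2 columns. The number of arrays limits the precision.

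Named were all members, the 5 tested miRNAs most correlated with miR-142-3p and with miR-223, and list members past the test or, where none passed, the tested one of smallest p. The members and lists were chosen with earlier results of these data known.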

Additional observations from a re-analysis of the deposited data

Results flagged for a closer look

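In 5 of 24 groups of 4 arrays, an array stood apart from the other 3 by Dixon's test. Chance flags about 1 in 20 groups of measured values, a rate that does not hold for this count: in 6 of the groups all arrays were equal at the floor and could not be flagged, and in 3 others some arrays were at the floor. The miR-146a level of db/db replicate 4, at 5.59 on the log2 scale, lay above the other db/db arrays. The miR-142-5p level of db/db replicate 4, at 2.25, lay below the other db/db arrays, and that of db/+ replicate 4, at 2.20, lay below the other db/+ arrays and is itself at the floor. The miR-155 level of db/db replicate 1, at 2.23, lay above the other db/db arrays, which were all at the floor. The difference of miR-142-3p minus miR-223 on db/+ replicate 4, at -2.07, lay below the other db/+ arrays; this was the dimmest array. A count restricted to groups with no array at the floor was also made, after the first count, and is not used.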

How the results depend on the processing

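As reported, 19 miRNAs and 2 leukocyte miRNAs, both lower, were called. All miRNAs called numbered 6 with cyclic loess, 0 with no scaling (limma; 1 at an unadjusted p under 0.05), 2 with normexp, 42 with array weights, 4 without the filter, 3 from the authors' deposited scores and 1 from the raw median intensity, and 11 to 20 on leaving out 1 array. Leukocyte miRNAs called lower numbered 1 with cyclic loess and with the higher floor, 0 with no scaling (limma; 0 at an unadjusted p under 0.05), 0 with normexp, without the filter and from the authors' scores (2, 2 and 3 unadjusted), 0 from the raw median (1 unadjusted), and 0 to 2 on leaving out 1 array. None was called higher under any setting, limma or SAM. SAM called 18 miRNAs and both members.

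Some settings were chosen after the data were seen. Quantile and cyclic loess normalization were first run over all mouse miRNAs, as given above. Restricted afterwards to the 127 tested miRNAs they called 17 and 21 miRNAs with both members, and the loess adjusted p of miR-223 went from 0.0952 to 0.0185; the restricted fits favour the call and came second. SAM was likewise run first with its fudge factor chosen by the coefficient of variation and then with the 5th percentile, which called 33. The fit without the filter was first run on all 567 mouse miRNAs, as given above, where those constant at the floor enter the estimate of the spread; without them, over 266, it called 15 miRNAs and 0 members (2 unadjusted). Leaving out db/+ replicates 1 and 4 gave 12 calls and 1 member, miR-142-3p, and leaving out db/+ replicates 2 and 4 gave 32 and 1, miR-142-5p, with the calls of miR-142-3p and miR-223 lost.

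The log2 fold change of miR-146a turned positive with quantile normalization (0.013), array weights (0.00096), the authors' scores (0.026), on leaving out 1 array (-0.19 to 0.047) and on leaving out db/+ replicates 1 and 4 (0.20) or 2 and 4 (0.038); that of miR-342-3p turned positive only in the last (0.13). miR-223 minus miR-342-3p ranged from -0.43 to 0.00051 on leaving out 1 array and was -0.63 without db/+ replicates 2 and 4. The causes were not tested. The median log2 fold change of all tested miRNAs was 0.15 as reported, 0.02 with 75th percentile scaling and -0.13 with normexp.

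With the replicate block (numbers 3 and 4, the remaining arrays as 1 more level) 18 miRNAs and both members were called, miR-142-3p with limma adjusted p = 0.0111 and miR-223 with 0.0133; the block changed no member's call.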
